A study of Homo sapiens with 12 samples.

Results

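HCP5 silencing was compared with control in KYSE150, an established human oesophageal squamous carcinoma cell line, by ATAC-seq, in which a transposase inserts sequencing adapters into accessible DNA. The 6 KYSE150 libraries of the 12 in the series were used, 3 from control cells and 3 from cells labelled HCP5 silence, all grown in RPMI-1640 with fetal bovine serum and all members of the same line, with no other agent or allele named in the labels. How HCP5 was silenced and what the control cells received are not given in the sources used here, nor whether the libraries came from separate cultures, so the p-values below measure only the spread between these libraries. Members were the open regions formed from the deposited peaks of height 3 or more on chromosomes 1 to 22, merged over the 6 libraries where they overlapped by at least 1 bp. There were 115693 such regions, and 26434 of them held a peak in all 6 libraries.

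An ATAC-seq peak marks a place where the transposase reached the DNA, most often a promoter or an enhancer that is cleared of nucleosomes. HCP5 is a long non-coding RNA transcribed from the major histocompatibility complex on chromosome 6. UTP3 is a nucleolar protein of the small subunit processome, the complex that assembles the small ribosomal subunit, and c-Myc is a transcription factor that binds E-boxes, often in promoters of genes for growth and ribosome production. The series title ties HCP5 to apoptosis through UTP3 and c-Myc, so the comparison asks whether accessibility at these genes, at c-Myc target genes and at apoptosis genes differed after silencing.

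The height of a peak is the deposited pileup at its top, which describes 1 position rather than the reads of the whole peak. The number of reads per library is unknown. The background level solved from height and fold enrichment served as a stand-in for depth and was 0.101, 0.103 and 0.101 in control 1, 2 and 3 and 0.0928, 0.108 and 0.0826 in silenced 1, 2 and 3. The median height over the 26434 shared regions was 10, 10 and 11 in the controls and 10, 9 and 8 in the silenced libraries. Silenced 3 had the lowest background, the lowest median height and the fewest regions, 49672 against 55160 to 59798 in the others. Heights were therefore divided by the library's median over the shared regions and multiplied by the mean of the 6 medians, 9.67, which is called the scaled height. The label was checked against markers. A region within 1 kb of the start was present in all 6 libraries for 10 of 18 squamous epithelial markers, among them the basal keratin gene KRT5 (median height 11) and the junction gene JUP (36). The same held for 0 of 10 fibroblast, 0 of 10 lymphoid and 1 of 10 endothelial markers, and for 41.5% of all 19126 protein-coding genes. KRT14, KRT19 and SOX2 had no promoter region in any of the 6 libraries.

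The promoters of the genes that the study turns on are shown first, as the 250 bases before the start site in RefSeq's GRCh38.p14, written along the gene's own strand. Capitals mark matches on either strand to the ETS motif CCGGAAG, the GC box GGGCGG or the CCAAT box CCAAT. UTP3 lies on the plus strand and its window is chr4:70688282-70688531. VAMP3, a vesicle SNARE gene listed with them, lies on the plus strand with the window chr1:7771046-7771295. HCP5 also lies on the plus strand, and its window is chr6:31462930-31463179. MYC had no entry in the promoter table.
UTP3: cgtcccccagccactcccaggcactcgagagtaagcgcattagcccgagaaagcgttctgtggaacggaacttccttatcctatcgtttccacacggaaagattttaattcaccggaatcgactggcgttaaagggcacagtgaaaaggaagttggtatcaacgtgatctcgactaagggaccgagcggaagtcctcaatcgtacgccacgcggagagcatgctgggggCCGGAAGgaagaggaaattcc
VAMP3: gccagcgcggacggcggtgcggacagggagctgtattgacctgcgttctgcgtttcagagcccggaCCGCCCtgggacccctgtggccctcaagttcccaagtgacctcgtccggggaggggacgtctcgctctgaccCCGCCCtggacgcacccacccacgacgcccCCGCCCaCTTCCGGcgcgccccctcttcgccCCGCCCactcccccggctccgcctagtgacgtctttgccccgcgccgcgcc
HCP5: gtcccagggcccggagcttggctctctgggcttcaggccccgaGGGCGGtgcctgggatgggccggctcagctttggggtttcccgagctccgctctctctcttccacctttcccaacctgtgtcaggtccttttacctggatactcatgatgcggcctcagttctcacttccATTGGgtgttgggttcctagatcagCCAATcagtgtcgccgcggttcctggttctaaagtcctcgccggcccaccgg
The UTP3 window held 1 ETS match close to the start site and lay wholly inside an open region. That of VAMP3 held GC boxes and an ETS match, and that of HCP5 a GC box and CCAAT boxes on both strands.

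UTP3 had 1 region, chr4:70688072-70689041 over its start site, with heights of 16, 17 and 14 in controls 1 to 3 and 10, 13 and 23 in silenced 1 to 3. The groups overlapped, with the lowest and the highest value both in silenced libraries. The difference on the log2 scale of scaled height, silenced minus control, was 0.09 ± 0.30 (SE, n = 3 against 3). Its adjusted p was 0.996 by limma's moderated test over all 26434 regions with Benjamini-Hochberg adjustment, which is the test used for every region below.

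MYC, which encodes c-Myc, had 3 regions that the rule classed as promoter, and since the reference gave no strand for this gene, regions at either gene end count. At chr8:127735766-127736399 the heights were 12, 14 and 9 in the controls and 10, 12 and 11 in the silenced libraries, a log2 difference of 0.14 ± 0.34. At the other gene end, chr8:127742950-127743396, they were 8, 18 and 15 against 17, 12 and 15, a difference of 0.37 ± 0.31. Both sets of heights overlapped, and the adjusted p was 0.993 and 0.949. The region chr8:127735126-127735645 had heights of 8, 10 and 11 in the controls and 10 and 13 in silenced 1 and 2, with no listed peak in silenced 3. It was thus outside the test, as was a region in the MYC gene body with peaks of 6 and 8 in controls 2 and 3 and 7 in silenced 1 and none in the other 3 libraries.

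HCP5 itself had 1 small region at its start, chr6:31462940-31463209, which counts as distal because HCP5 is no protein-coding gene. The highest listed peak over HCP5 was 3 in control 3 and absent from controls 1 and 2, and it was 2, 3 and 4 in the silenced libraries. These are heights at the edge of the rule, so no difference was read from them, and accessibility does not measure the RNA that was silenced. VAMP3 was likewise at the edge, with a highest peak of 3, 2 and 2 in the controls and 1, 1 and 1 in the silenced libraries. Its control values lay above the silenced ones, but only control 1 reached the minimum of 3, and VAMP3 did not pass the filter of the gene test.

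The classes of region differed mainly in how often they were shared. Promoter regions, those within 1 kb of a protein-coding start, made up 13969 of the merged regions (12.1%), and 51.0% of them were present in all 6 libraries. Gene body regions numbered 51638 (44.6%), with 19.5% in all 6. Distal regions, the rest, numbered 50086 (43.3%), with 18.4% in all 6. In contrast, 48964 of all merged regions were present in 1 library only. Among regions present in all 6 libraries, promoters were also the taller class, with a median height of 11.5 against 9 in gene bodies and 8.5 in distal regions.

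Control libraries 1 to 3 held 10172, 9986 and 10218 promoter regions, and silenced libraries 1 to 3 held 10011, 9941 and 9367. Gene body regions numbered 23786, 25218 and 25461 in the controls and 23252, 24707 and 20839 in the silenced libraries. Distal regions numbered 23345, 24362 and 24119 against 21897, 23564 and 19466. The groups overlapped in all 3 classes. The silenced mean minus the control mean was -352 promoter, -1889 gene body and -2300 distal regions, each with a two-sided exact permutation p of 0.2 (adjusted over 6 comparisons 0.4), where 3 against 3 libraries cannot give less than 0.1. Silenced 3, the library of lowest height, had the fewest regions in every class. When the minimum height was scaled to that of silenced 3, an alternative chosen after seeing the data, the differences took the other sign, 228 promoter, 1638 gene body and 1444 distal regions (exact p 0.5, 0.6 and 0.6). The scaled minimum was 4.125 in control 3 and 3 in silenced 3, and whole-number heights make such a minimum coarse. Under it silenced 3 held the most regions in every class, in gene bodies 20839 against 14387 to 17788 in the others. No direction was read from these signs, and the part of depth in the numbers was not tested further.

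**Figure D1:**
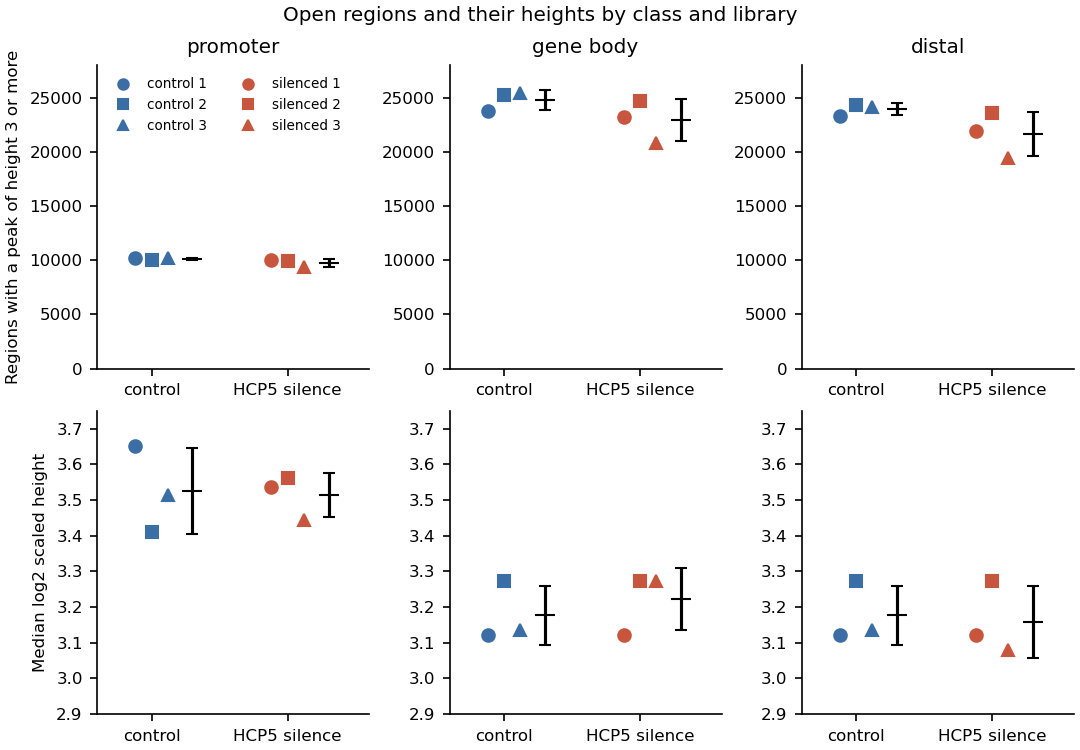
Number of regions with a peak of height 3 or more (top, axis from 0) and median log2 scaled height over the regions present in all 6 libraries (bottom, axis not from 0) in promoter, gene body and distal classes. Each point is 1 library, with control blue and HCP5 silence red, and black bars give the mean and SD of 3 libraries. Silenced 3 has the fewest regions in each class, and the heights of both groups overlap.

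Over the 26434 shared regions, the median log2 scaled height of promoters was 3.53 ± 0.12 (SD, n = 3) in the controls and 3.51 ± 0.06 (SD, n = 3) in the silenced libraries. For gene bodies it was 3.18 ± 0.08 and 3.22 ± 0.09, and for distal regions 3.18 ± 0.08 and 3.16 ± 0.10. The differences of -0.01, 0.05 and -0.02 were smaller than the spread within the groups, with two-sided exact permutation p of 1, 1 and 0.8 (adjusted over 6 comparisons 1). Their sign turned under several of the alternatives given at the end, so no direction was read from them.

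No region passed the height test. Of 26434 regions, 0 (0%) had an adjusted p under 0.05, and the smallest was 0.350. Without adjustment, p was under 0.05 for 713 regions with higher values (2.70%) and 711 with lower values (2.69%) in the silenced libraries. Scaling by the implied background instead gave 364 higher and 1150 lower and moved the median of all regions from -0.01 to -0.09 on the log2 scale. Regions whose 3 silenced values all lay above the control values numbered 1160 (4.39%), and those whose silenced values all lay below numbered 1258 (4.76%). By class, the unadjusted counts were 123 higher and 168 lower of 7130 promoters, 315 and 257 of 10071 gene body regions, and 275 and 286 of 9233 distal regions. In simulated data for 26434 regions with 200 planted changes, the test recovered 99.5% of changes of 2 and 25.0% of changes of 1 on the log2 scale. The simulated noise was normal, with an SD shared by regions of similar height. Spread particular to a region was thus not simulated, and recovery in the real data may be lower. The median SE of a region was 0.37.

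**Figure D2:**
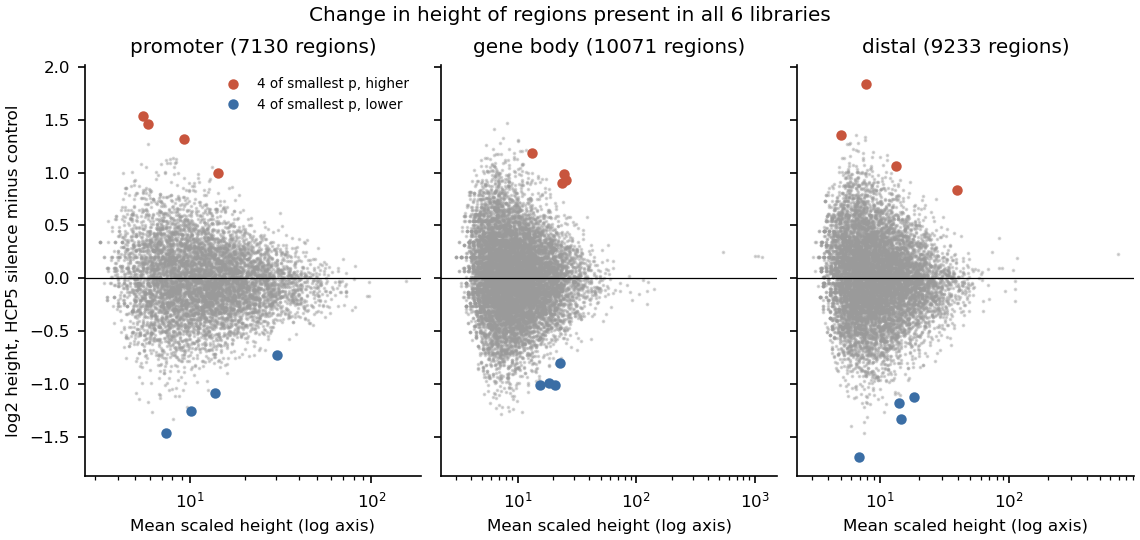
Mean scaled height over the 6 libraries (log axis) against the log2 difference in height, HCP5 silence minus control, for each region present in all 6 libraries, by class. Coloured points are the 4 regions of smallest p in each direction, none of which passed the adjusted threshold of 0.05, and low regions spread more widely than tall ones.

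The regions of smallest p are described next as values, 4 in each direction and class, and none of their differences passed the test. Among promoters higher in the silenced libraries, IL21R, the receptor gene for interleukin 21, had heights of 3, 3 and 3 in the controls and 8, 9 and 6 in the silenced libraries at chr16:27426394-27426770. All 3 controls sat at the minimum height of the rule. The log2 difference was 1.54 ± 0.39, with an adjusted p of 0.36. DNAJC5, which encodes a chaperone of synaptic vesicles, had 3, 4 and 3 against 9, 6 and 9 at chr20:63894783-63895358, a difference of 1.46 ± 0.40. SMAP2, a GTPase-activating protein for Arf, had 9, 3 and 6 against 13, 14 and 9 at chr1:40373395-40373850. ERICH6 had 12, 8 and 11 against 19, 17 and 17 at chr3:150703585-150704337, a difference of 0.997 ± 0.308 with the tallest silenced values of the 4.

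Among promoters lower in the silenced libraries, SF1, which encodes the splicing factor that binds the branch point, was the tallest. Its region chr11:64778481-64779313 had heights of 39, 39 and 43 in the controls and 25, 22 and 17 in the silenced libraries. The scaled values were nearly alike within each group, and the difference was -0.73 ± 0.21 with an adjusted p of 0.745, or -0.31 with fold enrichment in place of height. MDN1, the AAA-type ATPase that matures the large ribosomal subunit, had 12, 8 and 15 against 5, 3 and 3 at chr6:89818976-89820032, a difference of -1.46 ± 0.42. ARL14EPL had 23, 14 and 23 against 7, 9 and 8 at chr5:116032013-116032560. DRD3, the dopamine D3 receptor gene, had 17, 11 and 18 against 8, 4 and 5 at chr3:114179531-114180181. MDN1 had silenced values at or near the minimum of 3, whereas those of SF1 were far above it.

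The upstream windows of SF1 and MDN1 (lower in the silenced libraries) and ERICH6 (higher) are printed because their open regions cover nearly all of the window. All 3 genes lie on the minus strand, with windows chr11:64778543-64778792, chr6:89819795-89820044 and chr3:150703921-150704170. Capitals mark the CCAAT box and the GC box in SF1 and the E-box CACGTG, the site bound by c-Myc with its partner Max, in MDN1.
SF1: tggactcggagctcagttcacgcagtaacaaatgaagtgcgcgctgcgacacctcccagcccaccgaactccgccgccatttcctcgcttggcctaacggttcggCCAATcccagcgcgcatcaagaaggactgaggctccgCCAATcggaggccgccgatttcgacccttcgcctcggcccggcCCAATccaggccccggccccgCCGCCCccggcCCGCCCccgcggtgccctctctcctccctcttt
MDN1: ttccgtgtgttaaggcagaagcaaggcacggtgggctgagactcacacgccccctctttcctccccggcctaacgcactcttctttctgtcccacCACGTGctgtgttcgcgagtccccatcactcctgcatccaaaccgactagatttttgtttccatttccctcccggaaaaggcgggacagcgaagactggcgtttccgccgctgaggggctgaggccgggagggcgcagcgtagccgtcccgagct
ERICH6: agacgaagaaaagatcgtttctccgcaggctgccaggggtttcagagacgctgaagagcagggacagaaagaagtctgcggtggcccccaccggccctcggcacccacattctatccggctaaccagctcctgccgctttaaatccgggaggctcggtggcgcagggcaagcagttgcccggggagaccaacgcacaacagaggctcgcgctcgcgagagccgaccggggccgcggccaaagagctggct
SF1 held 3 matches to the CCAAT box and MDN1 held 1 E-box, whereas ERICH6 held none of the 7 motifs searched.

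**Figure D3:**
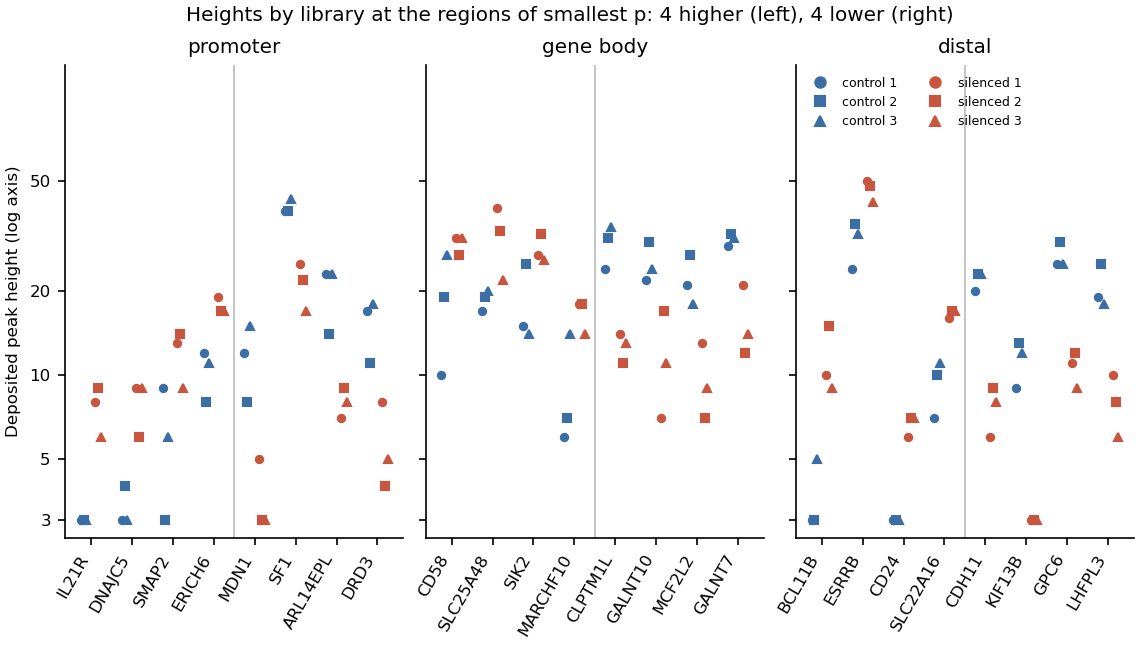
Deposited peak heights (log axis) in each library at the 24 regions of smallest p, by class, with 4 regions higher in HCP5 silence left of the grey line and 4 lower right of it. Each point is 1 library, control blue and silenced red, and distal regions carry the name of the nearest protein-coding gene. Several regions have values at the minimum height of 3.

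In gene bodies, CD58, the ligand of CD2 on T cells, had heights of 10, 19 and 27 in the controls and 31, 27 and 31 in the silenced libraries at chr1:116537347-116537880. The height of 27 in control 3 equalled that of silenced 2, and the groups separated only after scaling (0.98 ± 0.25, adjusted p 0.36). Without control 1 the difference was 0.59. SLC25A48, a mitochondrial carrier gene, had 17, 19 and 20 against 40, 33 and 22 at chr5:135651094-135651599. SIK2, a salt-inducible kinase gene, had 15, 25 and 14 against 27, 32 and 26 at chr11:111651320-111651815, and MARCHF10, a ubiquitin ligase gene, had 6, 7 and 14 against 18, 18 and 14. In MARCHF10 control 3 and silenced 3 shared the deposited height of 14.

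On the lower side, CLPTM1L, the neighbour of TERT on chromosome 5, had 24, 31 and 34 in the controls and 14, 11 and 13 in the silenced libraries at chr5:1328159-1328716. The difference was -1.02 ± 0.26, with an adjusted p of 0.36, and was -0.43 with fold enrichment in place of height. The lowest control was well above the highest silenced value. GALNT10, a gene for an enzyme that starts mucin-type O-glycosylation, had 22, 30 and 24 against 7, 17 and 11 at chr5:154197449-154198721, and GALNT7 had 29, 32 and 31 against 21, 12 and 14 at chr4:173252235-173252780. MCF2L2 had 21, 27 and 18 against 13, 7 and 9. These groups did not overlap, as in 4.63% of all gene body regions in this direction.

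The smallest p of any region was at a distal site, chr14:98886941-98887445, 282 kb from BCL11B, a zinc finger transcription factor gene. Its heights were 3, 3 and 5 in the controls and 10, 15 and 9 in the silenced libraries, a difference of 1.84 ± 0.42 with an adjusted p of 0.350. A taller distal site 48.6 kb from ESRRB, the gene of an oestrogen-related receptor, had 24, 35 and 32 against 50, 48 and 42 at chr14:76550430-76551005. That is a difference of 0.84 ± 0.20 with an adjusted p of 0.350 (0.46 with fold enrichment in place of height), and every silenced value was at least 7 above the highest control. Sites near CD24, a mucin-like surface protein gene, had 3, 3 and 3 against 6, 7 and 7, and near SLC22A16, a carnitine transporter gene, 7, 10 and 11 against 16, 17 and 17.

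On the lower side, the site chr16:64161341-64161754 lay 782 kb from CDH11, a cadherin gene, and had 20, 23 and 23 in the controls and 6, 9 and 8 in the silenced libraries. The difference was -1.33 ± 0.32 with an adjusted p of 0.350. A site 46.0 kb from GPC6, a glypican gene, had 25, 30 and 25 against 11, 12 and 9 at chr13:93169905-93170539. A site near KIF13B, a kinesin gene, had 9, 13 and 12 against 3, 3 and 3, so its silenced values all sat at the minimum. The site near LHFPL3 had 19, 25 and 18 against 10, 8 and 6. For each of these 4 sites the nearest protein-coding gene is only a name for the place, since no link between site and gene was measured.

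Regions found in 1 group only were described without a test, since presence chose them. There were 854 regions (0.738% of 115693) with a peak in all 3 controls and in no silenced library, of which 55 were promoter, 361 gene body and 438 distal. The reverse held for 324 regions (0.280%), with 33 promoter, 152 gene body and 139 distal. Most were low. The highest peak was at most 5 in 61.8% of the control-only and 69.4% of the silenced-only regions, and 245 and 85 of them had a lower peak, under the minimum of 3, in all 3 libraries of the other group. No listed peak of any height in the other group was found for 212 and 113. The larger control-only number stood beside the lower heights of silenced 3, and with the minimum scaled to that library the order was the reverse, 325 control-only and 470 silenced-only regions. That minimum was 4.125 in control 3 and 3 in silenced 3. With whole-number heights, control 3 thus had to reach 5 and silenced 3 only 3, so no order was read from these counts.

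The tallest control-only region lay 67.9 kb from MYO16, an unconventional myosin gene, with heights of 14, 18 and 17 in the controls and no listed peak in any silenced library. CTSC, the gene of the lysosomal protease cathepsin C, had a promoter region with 14, 8 and 13, and INO80B, a subunit gene of the INO80 chromatin remodeller, one with 13, 10 and 8. ZSWIM1 had 9, 12 and 8 and SEPTIN9, a septin cytoskeleton gene, 11, 9 and 9 in gene bodies. The promoter region of CATSPERZ, which encodes a sperm calcium channel protein, had 5, 9 and 10. All 6 were absent from the silenced lists at any height.

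On the silenced-only side, PLEC, which encodes the cytoskeletal linker plectin, had the tallest region, with 15, 13 and 13 in the silenced libraries. USF3 had a promoter region with 9, 11 and 10. In gene bodies, SYNJ2, an inositol phosphatase gene, had 5, 9 and 11, IRS1, the insulin receptor substrate gene, 10, 8 and 7, and TRAF4, a signalling adaptor gene, 8, 8 and 6. ARF4, a small GTPase gene of the Golgi, had a promoter region with 6, 7 and 8, and RBL2, a retinoblastoma-like gene, one with 11, 5 and 3. None had a listed peak in a control library.

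A missing peak in these lists is not a height of 0, because a peak is listed only where it stands above its local background. That background, solved from height and fold enrichment, was 3.18 to 3.68 at the MYO16 site, 2.98 to 3.8 at PLEC and 2.12 to 2.26 at INO80B. These were the 3 highest among the 13 named regions. One-sided regions as a whole had a lower background than shared regions, with a median of 0.18 for control-only and 0.19 for silenced-only regions against 0.44, and with 2.46% and 2.16% over 1 against 12.4%. Most one-sided regions were low, however. Where the highest height was 8 or more, the share over 1 was 18.3% of 93 control-only and 20.8% of 24 silenced-only regions, against 13.8% of shared regions. The medians of these taller regions were 0.36 and 0.62 against 0.48. Fold enrichment at the 13 one-sided regions named here was 2.83 to 8.93. Single lists also had gaps. Among regions with a height of 8 or more in the other 5 libraries, the share with no listed peak ran from 0.129% in control 3 to 0.520% in silenced 3 (59 of 11356). The part of local background in the one-sided regions was not tested.

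For genes, scaled heights were summed over all regions in the gene or within 1 kb of it and tested by limma as log2(sum + 1), and differences are on that scale. Of 13333 genes with a mean sum of 3 or more, 0 (0%) had an adjusted p under 0.05, and the smallest was 0.920. Without adjustment, p was under 0.05 for 242 higher (1.82%) and 429 lower (3.22%) in the silenced libraries. The median difference over all genes was -0.04, and scaling by the implied background moved it to -0.12 with 113 higher and 667 lower. In simulated data for 13333 genes, 75.5% of 200 planted changes of 2 and 34.0% of changes of 1 were recovered. The simulated noise was normal, with an SD shared by genes of similar summed height. Spread particular to a gene and sums of 0 were thus not simulated, and recovery in the real data may be lower.

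The genes of smallest p carried an adjusted p of 0.920 in each case. DCDC1, a doublecortin-domain gene with 26 regions, had sums of 53.2, 57.0 and 46.6 in the controls and 27.1, 30.1 and 27.8 in the silenced libraries. Its difference of -0.86 ± 0.18 had the smallest p of any gene. It was -0.46 with lower peaks over the same regions included and -1.38 at a minimum height of 5. The groups did not overlap in the main test. The share of all genes without overlap was not counted, and among regions it was 4.76% in this direction. FLT4, the receptor gene for the lymphatic growth factor VEGF-C, had 10.6, 21.3 and 16.7 against 5.8, 3.22 and 3.63. Also lower were ARL14EPL, TBCEL-TECTA, AGFG1, ATP8B3, UNC13C, USP10 and TTYH3, with differences from -1.41 in TBCEL-TECTA to -0.69 in TTYH3. With lower peaks over the same regions included, TBCEL-TECTA was -0.70, UNC13C -0.52 and USP10 -0.56. At a minimum height of 5, TBCEL-TECTA was -3.49 and USP10 -1.67.

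On the higher side, SLC35D1, a nucleotide sugar transporter gene, had sums of 7.73, 2.9 and 6.15 in the controls and 15.5, 18.3 and 15.7 in the silenced libraries, a difference of 1.48 ± 0.37. KSR2, a scaffold gene of the Ras pathway, had 21.3, 31.9 and 25.5 against 36.7, 59.1 and 52.0 over 20 regions. ZNF462, a zinc finger gene, had the highest sums of those discussed here apart from LOC102724250, 70.6, 84.1 and 72.1 against 102, 115 and 96.7, and a difference of 0.47 ± 0.13. RAB11FIP3, a Rab11 effector gene, had 0, 12.6 and 3.52 against 15.5, 18.3 and 19.3, with an absent region in control 1 counted as 0, and its difference of 2.24 was 1.24 without control 1. FBXL4, CORO6, GRAMD4, CACNA1I and PLCH1 had differences from 0.91 to 1.64. LOC102724250 had a difference of 0.21 ± 0.06, but the deposited heights of its tallest region were 1049, 1059 and 1043 in the controls and 1032, 1093 and 1035 in the silenced libraries, so its difference appeared only after scaling.

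Gene lists were read by counts and medians beside those of all genes, of which 44.5% had a positive difference. Of 24 c-Myc target genes, 19 had a promoter region in all 6 libraries, and of the 23 tested 0 were higher and 1 lower at an unadjusted p under 0.05, against 1.82% and 3.22% of all genes. Their median difference was -0.16, and 3 of 23 were positive. PTMA, which encodes prothymosin alpha, had sums of 25.1, 30.0 and 30.8 in the controls and 20.3, 19.3 and 18.1 in the silenced libraries (-0.54 ± 0.21, adjusted p 0.920). HSPD1, a mitochondrial chaperonin gene, had 44.5, 31.9 and 29.9 against 28.0, 31.1 and 27.8, and shares its region with HSPE1. The list's median per library was 4.04, 4.35 and 4.15 on the log2 scale in the controls and 4.202, 3.796 and 4.16 in the silenced libraries, so the groups overlapped with silenced 2 lowest. With fold enrichment in place of height the median difference was -0.05.

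Of 30 apoptosis genes, all tested, 0 were higher and 1 lower at an unadjusted p under 0.05. The shares over all genes were 1.82% and 3.22%, so this count was near them and no result was read from it. The same shares stand beside the counts of the lists below. The median of the apoptosis genes was -0.09. The lower one was APAF1, the scaffold of the apoptosome that activates caspase 9, with sums of 45.4, 43.5 and 38.7 in the controls and 27.1, 34.4 and 25.4 in the silenced libraries. Its groups did not overlap, its difference was -0.55 ± 0.19 and its adjusted p was 0.920. The share of all genes without overlap was not counted, so the separation was not read as particular to APAF1. BCL2L11, the gene of the BH3-only protein BIM, had 21.3, 23.2 and 20.2 against 16.4, 19.3 and 6.04, with silenced 3 far below the rest, and its difference of -0.73 was -0.28 without that library. With fold enrichment in place of height, the median of the apoptosis genes was 0.01.

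In the small subunit processome, 27 of 34 genes had a promoter region in all 6 libraries, and of 31 tested 1 was higher and 0 lower. The median was -0.10. NOP58, a core protein of box C/D small nucleolar ribonucleoproteins, had sums of 13.5, 19.3 and 7.91 in the controls and 19.3, 25.8 and 24.2 in the silenced libraries, a difference of 0.79 ± 0.30 in which control 2 and silenced 1 were equal. NOL11 had 8.7, 10.6 and 7.03 against 13.5, 12.9 and 15.7. Among 6 tested genes of the axis itself, none reached an unadjusted p of 0.05. The axis list includes MAX, which encodes the partner of c-Myc, and also MXD1, MXI1 and MNT. MXI1 had the smallest p, with 72.5, 68.6 and 61.5 against 64.8, 58.0 and 56.8 (-0.17 ± 0.15).

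Squamous transcription factor genes had a median of -0.07, with 1 of 18 lower. That was GRHL3, a grainyhead factor of epidermal differentiation, with sums of 9.67, 20.3 and 11.4 in the controls and 6.77, 6.44 and 0 in the silenced libraries. The value of 0 in silenced 3 stands for regions with no peak of height 3. The difference of -1.87 was -0.91 without that library and -0.68 with lower peaks over the same regions included. TP63, the basal cell master regulator, had 106, 84.1 and 87.0 against 71.5, 70.9 and 82.2 over 21 regions, a difference of -0.30 ± 0.14. The groups of TP63 did not overlap, but the share of all genes of which this holds was not counted. Squamous epithelial markers had a median of 0.01, with 0 of 14 past the unadjusted threshold, and PERP (-0.62) and S100A2 (0.31) had the smallest p among them.

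AP-1 genes had a median of -0.07, which was -0.29 without silenced 1 and -0.21 without control 1, and 1 of 12 was lower. FOS had sums of 9.67, 12.6 and 11.4 in the controls and 5.8, 3.22 and 7.25 in the silenced libraries, whereas JUN had 47.4, 34.8 and 36.9 against 47.4, 52.6 and 52.0. Thus the named members of the family had differences of opposite sign, -0.97 and 0.36. The 20 p53 target genes had a median of -0.09, with 6 positive. Of these 1 was lower, TP53I3, with 88.9, 82.2 and 86.1 against 66.7, 65.5 and 71.3 (-0.33 ± 0.13). Its difference was -0.08 with fold enrichment in place of height. TP53INP1 had 5.8, 5.8 and 7.91 against 2.9, 5.37 and 0, and its difference of -1.35 was -0.60 without silenced 3. The 14 interferon-stimulated genes tested had a median of -0.19, with 4 positive. Of these 1 was higher, OAS2, an RNA-sensing synthetase gene, with 5.8, 4.83 and 4.39 against 9.67, 10.7 and 14.5 (1.06 ± 0.38). The difference of OAS2 was -0.54 at a minimum height of 5, and OASL had a difference of -0.56. The 13 tested genes near HCP5 in the major histocompatibility complex had a median of -0.10, with 6 positive. Of these 1 was lower, MICA, the ligand gene of the receptor NKG2D, with 15.5, 20.3 and 12.3 against 10.6, 11.8 and 6.04. Its difference of -0.72 was -0.47 without silenced 3 and took the other sign, 0.51, for the highest region near the start.

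Integrated stress response genes had a promoter region in all 6 libraries for 12 of 14 members and a median of 0.02, with none past the unadjusted threshold. CEBPB and XBP1 had differences of 0.62 and 0.71, which ran from 0.39 to 0.98 and from 0.14 to 1.13 on leaving out 1 library. The 18 cell cycle genes had a median of 0.04, with 12 positive. In this list 1 was lower, RB1, the retinoblastoma gene. It had 29.0, 27.1 and 24.6 in the controls and 18.4, 20.4 and 14.5 in the silenced libraries (-0.58 ± 0.23). CCND1, the cyclin D1 gene, had 9.67, 11.6 and 7.03 against 7.73, 8.59 and 0. Its difference of -1.23 rested on the 0 in silenced 3 and was -0.18 without it. Fibroblast, lymphoid and endothelial markers, which serve as a check of other cell types, had few tested genes, 5, 4 and 7, and none past the unadjusted threshold. Their medians were -0.56, 0.08 and -0.31. Of the 7 endothelial genes 0 were positive, and their median ran from -0.39 to -0.18 on leaving out 1 library. With so few genes, the fibroblast and lymphoid medians moved with single libraries. The fibroblast median was -0.07 without silenced 2, and the lymphoid median ran from -0.12 to 0.19 on leaving out 1 library. Among them COL1A1, COL1A2, LCK, PTPRC, TIE1 and ERG had the smallest p, with differences from -1.14 to 0.44. The -1.14 of COL1A1 rested on a sum of 0 in silenced 2 and was -0.07 without it.

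**Figure D4:**
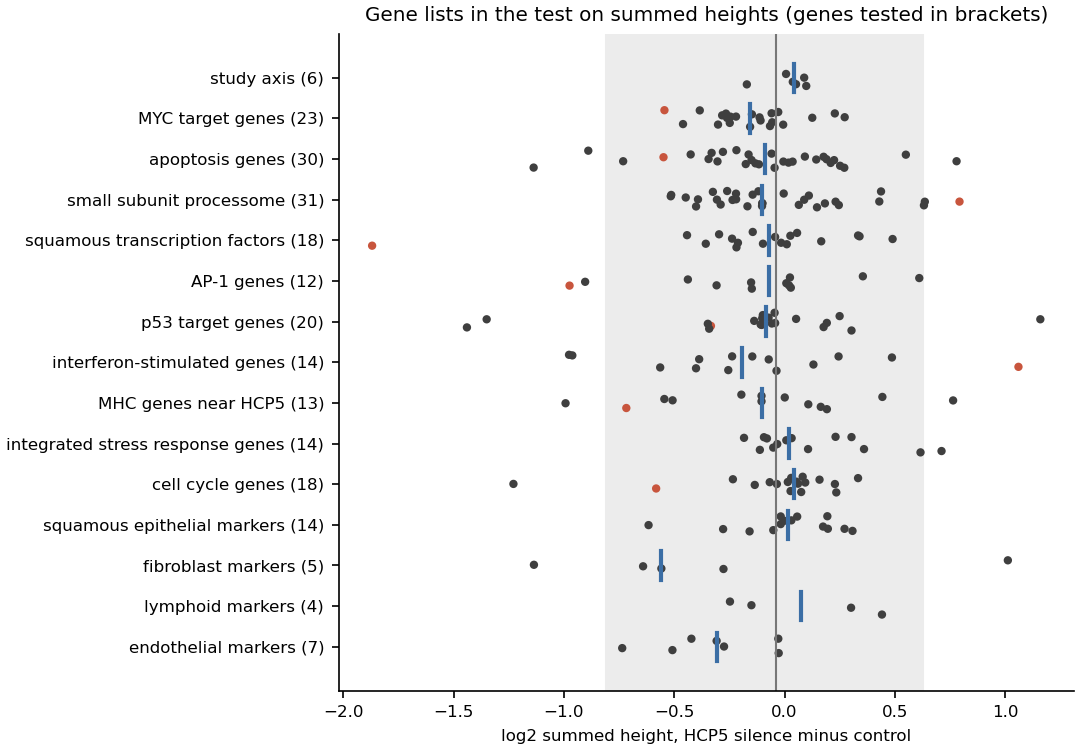
Difference in log2 summed height, HCP5 silence minus control, for each tested gene of the 15 lists, with the number tested in brackets. Red points have an unadjusted p under 0.05, blue bars are list medians, the grey line is the median of all 13333 genes (-0.04) and the grey band spans their 5th to 95th percentile (-0.81 to 0.63). Most members lie inside the band.

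Across promoters, 7 motifs were searched on both strands in the 300-base windows of 15101 protein-coding genes, 6068 of which (40.2%) overlapped a region present in all 6 libraries. Such open windows made up 68.1% of the windows with the ETS motif CCGGAAG and 35.5% of those without it, and 51.7% against 23.7% for the GC box. For the TATA box TATAAA they made up 19.3% against 42.4%. Open promoters with the CCAAT box were taller than those without, by 0.40 ± 0.02 (SD, n = 3) on the log2 scale in the controls and 0.40 ± 0.02 (SD, n = 3) in the silenced libraries. Windows of genes that share a start region count more than once, so these shares are descriptions.

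The E-box CACGTG was present in 8.77% of windows. Height with minus without an E-box was -0.018, -0.020 and -0.027 in controls 1 to 3 and 0.006, -0.008 and 0.008 in silenced 1 to 3, so the groups did not overlap. The mean difference between groups was 0.024 on the log2 scale, with a two-sided exact permutation p of 0.1, the smallest that 3 against 3 libraries allow, and 0.7 after adjustment over the 7 motifs. AP-1 (TGANTCA), CRE (TGACGTCA), ETS, CCAAT box, GC box and TATA box had differences from -0.009 to 0.006, with exact permutation p from 0.6 to 0.9. AP-1 motifs were in 5.70% of windows, CRE in 2.65%, ETS in 14.4%, the CCAAT box in 36.0%, the GC box in 58.9% and the TATA box in 9.71%. None of the 7 motifs contains another, and a match describes the window and not binding.

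**Figure D5:**
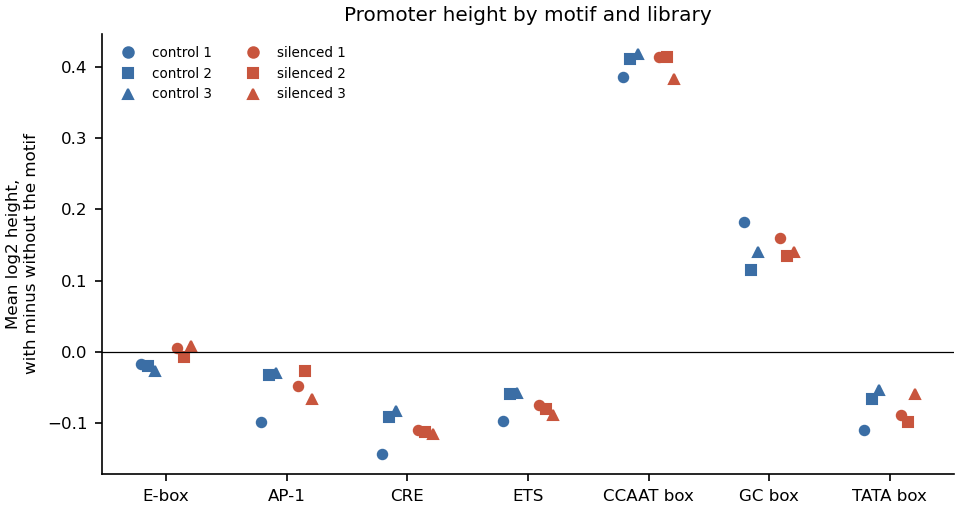
Mean log2 scaled height of open promoters with a motif minus that of open promoters without it, for 7 motifs. Each point is 1 library, control blue and silenced red. The CCAAT box stands highest in both groups, and for the E-box the 3 silenced libraries lie above the 3 controls by a mean of 0.024.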

How the data were processed

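ATAC-seq peak lists of 6 KYSE150 libraries were used, grouped by the labels' treatment into control and HCP5 silence, with 547125 to 630780 deposited peaks each. Per the submitters' processing notes, the tools were Trimmomatic 0.36, Bowtie2 2.2.6, Picard 2.8.2, MACS2 2.1.1 and bedtools 2.25.0 with the build GRCh38. Their settings are not given in the sources used here. Per the file headers, the signal is a pileup, used here as the height of a peak, with whole-number values from 1. The deposited fold enrichment is a ratio of height to local background, (height + 1) / (background + 1), from which the background was solved here. The deposited p-value (at most 0.00987) and FDR are on the linear scale. The deposited tables record no scaling between libraries.

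Of the deposited peaks, 9.41 to 10.8% were of height 3 or more on chromosomes 1 to 22. They were merged, given the highest height per library, and scaled by the library's median over shared regions. Gene names, starts and promoter sequences come from RefSeq GRCh38.p14. A start site and sequence was matched for all but 4025 of 19126 protein-coding genes, and for those 4025 both gene ends counted as start. Of the listed genes, 1 interferon-stimulated gene had no match. Tests used limma 3.58.1 in R 4.3.3 (lmFit, eBayes with trend, Benjamini-Hochberg adjustment) and exact permutation tests in scipy 1.17.1, with Python 3.11.15, numpy 2.4.6, pandas 2.3.3 and matplotlib 3.10.9. The gene test used a pseudocount of 1 and a mean sum of at least 3. Both limma tests were tested on simulated data, with 3 and 10 false calls in the simulations for regions at changes of 1 and 2, and 6 and 10 in those for genes.

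Named were the 4 regions of smallest p per class and direction, 10 genes per direction, the 5 highest one-sided regions and 3 highest one-sided promoters per side, HCP5, UTP3, MYC and VAMP3, and the 2 members of smallest p of each of 15 lists. Some items that this rule names are not reported here. The regions, lists and rules were chosen with earlier results of these data known, and the motifs and printed windows after the values were seen. The alternatives were other scalings, thresholds, overlaps and filters, a replicate block, and leaving out each library.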

Additional observations from a re-analysis of the deposited data

How the results depend on the processing

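In every alternative run, 0 regions and 0 genes had an adjusted p under 0.05. The smallest adjusted p was 0.0789 for regions, under quantile normalization, and 0.503 for genes, without silenced 2. Counts at an unadjusted p under 0.05 moved as follows. Scaling by the implied background gave 364 regions higher and 1150 lower, and 113 genes higher and 667 lower. A minimum height of 5 gave 424 regions and 137 genes higher. An FDR of at most 1e-05 left 10892 regions to test and gave 386 higher and 223 lower. Including lower peaks at a mean height of 3 or more gave 1073 regions lower, and the highest region near the start gave 140 genes higher and 237 lower. Leaving out 1 library gave 478 to 853 regions higher and 491 to 1163 lower, and 101 to 298 genes higher and 228 to 744 lower. The ends of these ranges were without silenced 1 (478 and 1163 regions, 101 and 744 genes) and without control 3 (853 and 491 regions, 298 and 228 genes).

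The class difference in height turned sign for promoters with fold enrichment (0.00594) and promoters within 2 kb (0.027). It did so for gene bodies with background scaling (-0.043), was 0 there at a minimum height of 5, and turned for distal regions at that minimum (0.036) and for the mean in place of the median (0.00389). Leaving out 1 library, it ran from -0.081 to 0.091 for promoters, -0.119 to 0.012 for gene bodies and -0.101 to -0.012 for distal regions. Class numbers turned sign only when the minimum was scaled to silenced 3, to 228, 1638 and 1444, and leaving out 1 library ran from -471 to -149, -2776 to -842 and -3261 to -1212.

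One-sided counts, 854 and 324, were 536 and 84 at the stricter FDR, and 136 silenced-only at a minimum height of 5. They were 325 control-only and 470 silenced-only with the minimum scaled to silenced 3, and 212 and 113 with no peak of any height in the other group. Without 1 library, which needs fewer libraries to match, they were 1420 to 2256 and 643 to 1152. The summed height of UTP3 (0.09) turned to -0.33 without silenced 3, and leaving out 1 library gave -0.33 to 0.318. That of MYC turned to -0.0340 with background scaling, -0.0336 with fold enrichment, -0.17 without control 1, -0.13 without silenced 1 and -0.01 without silenced 2, in a range of -0.17 to 0.208. The 24 named regions and the 20 genes of smallest p kept their sign in 340 and 271 refits but moved by over 1.5 times in 6 and 22 of them. For regions, fold enrichment gave -0.31 at SF1, 0.55 at SLC25A48, -0.43 at CLPTM1L, 0.46 near ESRRB and -0.76 near LHFPL3, and CD58 was 0.59 without control 1. For the study's own genes and the list members of smallest p, 80 of 438 refits moved by as much. MICA turned to 0.51 for the highest region near the start, and MNT to -0.0642 there and to -0.00477 with fold enrichment, in a range of -0.14 to 0.21 on leaving out 1 library. At a minimum height of 5, OAS2 turned to -0.54 and TIE1 to 0.0660. List medians that moved beyond their SD between libraries were those of the study's own genes (-0.14), the small subunit processome (-0.25), AP-1 genes (-0.29) and cell cycle genes (-0.11) without silenced 1, AP-1 genes (-0.21) without control 1, p53 targets (0.09) and squamous epithelial markers (0.15) without control 3, and fibroblast markers (-0.07) without silenced 2 and (-1.13) at a minimum height of 5.

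Same-numbered libraries had deviations from their group means that correlated by 0.0824, 0.0764 and 0.0212. The numbers were not taken as pairs in the main tests, although each pair correlated best with its own number. In log2 height, silenced 1, 2 and 3 correlated by 0.781, 0.780 and 0.770 with the same-numbered control, and by 0.757 to 0.768 with each other. Controls correlated with each other by 0.765 to 0.790. With a replicate block, 796 regions were higher and 844 lower, and 269 genes higher and 499 lower, at an unadjusted p under 0.05. The smallest adjusted p of a region by limma was then 0.160, against 0.350 without the block. The cause of these shifts was not tested, and the unknown read depth limits all heights near 3.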

Other observations

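Some regions had nearly the same deposited height in all 6 libraries whatever the library's median. A site in KIF5C at chr2:148881627-148881927 had 1139, 1141 and 1142 in the controls and 1121, 1150 and 1146 in the silenced libraries. A site at chr17:22521268-22521590 had 687, 681 and 675 against 679, 695 and 711, and 1 in PCBD2 had 529, 525 and 523 against 548, 536 and 537. After scaling, these sites had log2 differences of 0.20, 0.23 and 0.24, although the deposited heights of the groups differed little. The tallest promoter, that of PPP2R5A, a regulatory subunit gene of protein phosphatase 2A, had 194, 138 and 171 against 168, 133 and 127. ATF3, a stress-induced AP-1 family gene, held a gene body region of 159, 151 and 160 against 135, 149 and 100.

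By chromosome, the median log2 difference in height ran from -0.04 on chromosome 18 to 0.05 on chromosome 19. The median log2 scaled height of each chromosome was also taken per library, minus that library's median over all shared regions. On chromosomes 4, 19 and 21 these relative medians did not overlap between groups. The unadjusted exact permutation p was 0.1 each, the smallest that 3 against 3 libraries allow, among 22 chromosomes compared. Chromosome 19 had relative medians of -0.15, -0.15 and -0.14 in the controls and 0, 0 and 0 in the silenced libraries, steps that whole-number heights set.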
